A study of Homo sapiens with 12 samples.

Results

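The 8 genes described here encode enzymes that make asparagine, proline and cysteine, or that move nitrogen and carbon between the amino acids and the citric acid cycle. They are ASNS, GPT2 and GOT1, which act on aspartate, alanine and glutamate, PYCR1 and ALDH18A1 of proline synthesis, CBS and CTH of transsulfuration, and PCK2, which makes phosphoenolpyruvate in mitochondria. The group was put together by function with the differences from control in these same libraries already known, so its levels against control are given as a description without a test. The 8 genes are part of the 25562 genes with a count above 0, and all 8 were among the 15098 genes that passed the filter on low counts. Their summed counts were at least 41 in every library.

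The libraries came from WM-266-4, an established line of human melanoma cells. In all 4 groups the cells carried a stable lentiviral knock-down of TYRO3, a receptor tyrosine kinase, made with 1 shRNA and kept as a puromycin-selected population that the sources do not call a clone. The cells were transfected with pEZY-myc-his plasmids for GFP (control), for wild-type (WT) TYRO3, for TYRO3 ΔGS, in which the substitution I449A makes the receptor resistant to gamma-secretase, or for TYRO3 ΔADAM, in which P408A, L409P and G419P make it resistant to ADAM proteases. The labels name GFP in the control plasmid, whereas the methods speak of a control vector. All cells were starved of serum overnight before RNA extraction, and 3 experiments with 1 library of each group gave 12 libraries in 4 groups of 3.

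Levels are given in CPM, a gene's share of the counts of its library after TMM normalization, from transcript counts summed per gene. The library totals ranged from 4008293 to 38184838 estimated counts, and both ends of this range were control libraries, of experiment 1 and experiment 2. TYRO3, the gene that was knocked down and put back, was at 47.3 to 56.6 CPM in the 3 control libraries and at 1181 to 3694 CPM in the other 9. This separates control from construct libraries in every experiment, but the 3 constructs overlapped in TYRO3 level and differ only in substitutions that gene counts do not show, so the labels among these 9 libraries were not checked. Of 8 melanocyte lineage markers, 7 were at 5 CPM or more in every library, and all 9 markers of blood, epithelial and endothelial cells were under 3 CPM throughout. The summed level of the 8 melanocyte markers was 2292 to 2783 CPM in control, 1316 to 2550 with WT, 1367 to 2293 with ΔGS and 1357 to 2065 with ΔADAM, and MITF and DCT, named here after their values were seen, were called lower with ΔGS and with ΔADAM. The part of this difference in the results below was not tested.

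Asparagine is made from aspartate with an amide nitrogen from glutamine, and aspartate and alanine receive their nitrogen from glutamate through transaminases. Proline is made from glutamate through pyrroline-5-carboxylate, and cysteine is made from the homocysteine of the methionine cycle through cystathionine. Several of these enzymes are known targets of the transcription factor ATF4, whose translation rises when amino acids are scarce or the endoplasmic reticulum is stressed. ATF4 binds together with C/EBP proteins to a composite element, the C/EBP-ATF response element.

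A common core of that element, TGATGNAA in which N is any base, was searched on both strands of the RefSeq promoter windows of GRCh38.p14, which run from 250 bases before to 50 bases after a start site. It was found in 1270 of 35116 windows (3.62%), and no other motif was searched. Of the 8 genes, 6 had windows in the table, 9 in all, and 2 of these 9 held a match. GPT2 and PYCR1 had no window. The matches were in ASNS, 68 bases before the start and read along the gene, and in GOT1, 198 bases before the start and read against it. The bases around both matches are shown because they are the only 2 among these windows, with the match in capitals and the sequence written along the gene. They come from chr7:97872443-97872502 and chr10:99430789-99430848, both on the minus strand.

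ASNS: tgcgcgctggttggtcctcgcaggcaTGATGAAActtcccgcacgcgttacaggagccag
GOT1: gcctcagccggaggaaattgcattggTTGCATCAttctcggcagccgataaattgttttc

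A match is a run of letters and does not by itself show binding, and the other windows only lack these letters. ASNS was among the genes that stood far above control, while GOT1 overlapped it, as given next.

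With each of the 3 TYRO3 constructs, ASNS, GPT2, PCK2, PYCR1, CTH and CBS were higher than in control, by 1.62-fold to 3.20-fold in the fit over the 3 experiments. ALDH18A1 was level with control and GOT1 was between 1.24-fold and 1.46-fold higher with overlapping libraries. A gene was called when its fold change exceeded 1.5 and its adjusted p was 0.05 or less. With WT, 6 of the 8 genes were called higher, as were 1.66% of all tested genes (2.35% called in either direction). With ΔGS it was 6 of 8 against 2.81% (4.69% in either direction), and with ΔADAM 6 of 8 against 3.15% (5.19%). These were the same 6 genes each time, and 1.53% of all genes were called higher with all 3 constructs. The genes were chosen on this contrast, so nothing is read from these counts. The 3 comparisons share the 3 control libraries and are not independent of each other.

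The median log2 fold change of the 8 genes was 1.03 with WT, 1.14 with ΔGS and 1.10 with ΔADAM, beside medians over all tested genes of -0.0025, 0.0066 and -0.0021. Within each of the 3 experiments, 6 of the 8 were above their own control with WT (24.1% of all genes), 7 with ΔGS (23.7%) and 6 with ΔADAM (24.7%). The lowest construct library was above the highest control library for 5 of 8 with WT (10% of all genes), 6 with ΔGS (11.1%) and 5 with ΔADAM (12%). In RNA of whole cultures, more cells with a transcript and more of the transcript per cell cannot be told apart.

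**Figure D1:**
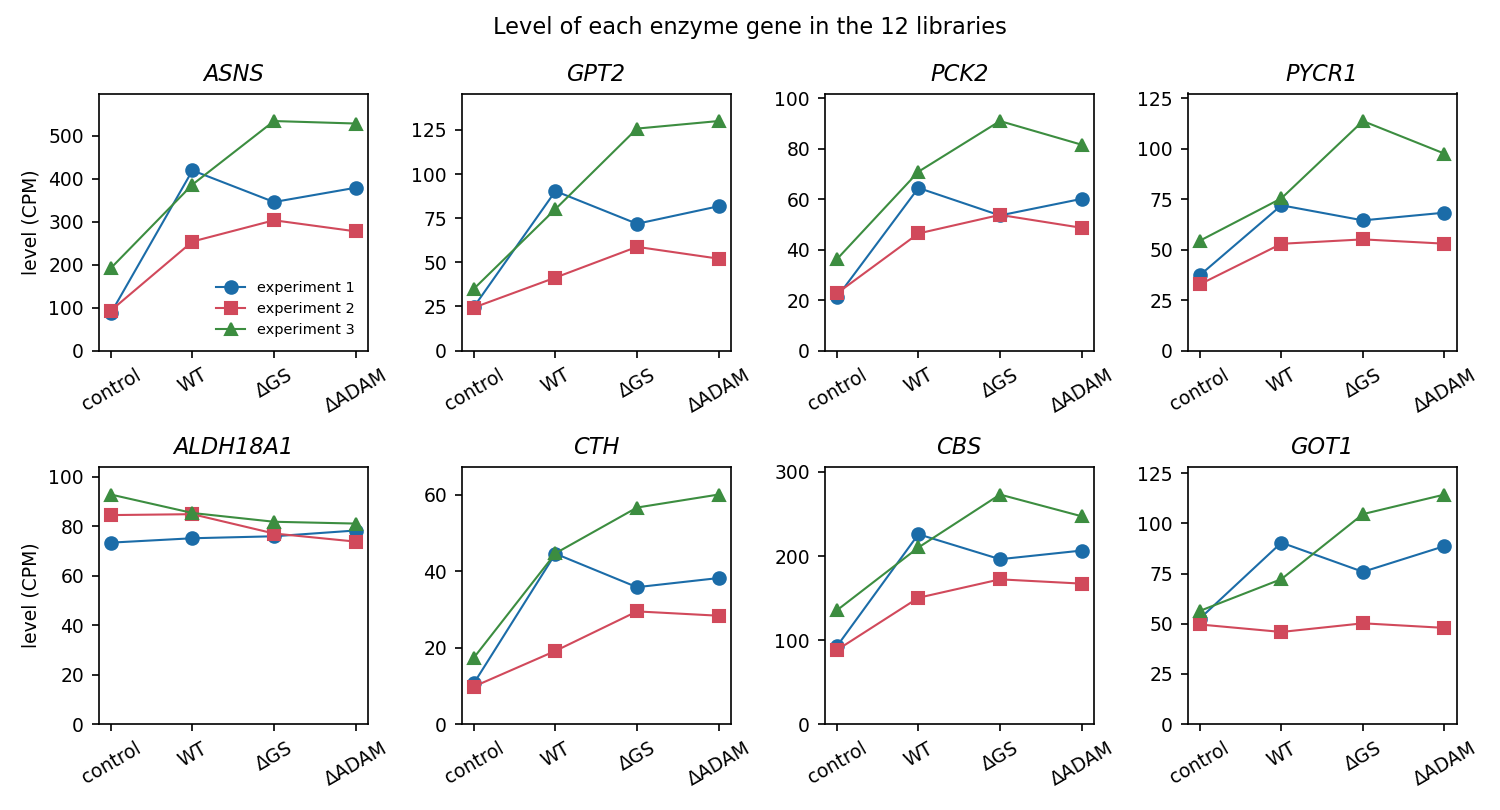
Level in CPM (y axis, from 0) of each of the 8 genes in control and in the 3 construct groups (x axis). Each point is 1 library and a line joins the 4 libraries of an experiment. ASNS, GPT2, PCK2, CTH and CBS sat above all control libraries in all 9 construct libraries, whereas ALDH18A1 stayed between 73.4 and 92.8 CPM.

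The calls rested on comparing libraries within experiments. The methods of the study treat experiment 1 as a batch apart from the others. When the model held that single contrast between experiments in place of the replicate block, 0 of the 8 genes were called with WT, 0 with ΔGS and 1, ASNS, with ΔADAM. The fold changes of the 6 genes under that model were between 0.69 (PYCR1 with WT) and 1.72 (CTH with ΔADAM) on the log2 scale. A fit of the control and WT libraries alone, with the block, called 1 of the 8 genes with WT, PCK2. The loss of calls was general. The main fit called 355 of all 15098 tested genes with WT, 708 with ΔGS and 784 with ΔADAM (2.35%, 4.69% and 5.19%). These other fits called far fewer, with numbers given in the section on processing. Nothing about the 8 genes in particular is read from these counts.

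ASNS, the enzyme that makes asparagine, lies on chromosome 7 from 97852118 to 97872542 on the minus strand of GRCh38. Its level in control was 87.3, 93.2 and 192 CPM in experiments 1, 2 and 3. With WT it was 420, 254 and 387 CPM, with ΔGS 346, 303 and 535 CPM, and with ΔADAM 379, 278 and 529 CPM. All 9 construct libraries were above all 3 control libraries, and the control of experiment 3 stood clear of the other two controls. The log2 fold change was 1.55 ± 0.17 (SE) with WT, 1.68 ± 0.17 with ΔGS and 1.67 ± 0.17 with ΔADAM, with 3 libraries in each group. With WT the ratio to control was 4.81 in experiment 1, 2.72 in experiment 2 and 2.01 in experiment 3, so the 3 experiments differed more among themselves than the constructs did.

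GPT2 is the mitochondrial alanine transaminase, which moves nitrogen between glutamate and alanine, and lies on chromosome 16 from 46884378 to 46931297 on the plus strand. It was at 24.7, 24.4 and 35.0 CPM in control, and at 90.3, 41.3 and 80.1 CPM with WT. With ΔGS it was at 71.8, 58.7 and 126 CPM and with ΔADAM at 81.7, 52.1 and 130 CPM. Every construct library was above every control library, and experiment 2 gave the lowest value in each construct group. The log2 fold changes were 1.25 ± 0.20 with WT, 1.51 ± 0.20 with ΔGS and 1.53 ± 0.20 with ΔADAM.

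GOT1, the cytosolic aspartate transaminase on chromosome 10 (99396870 to 99431569, minus strand), did not separate the groups. Control libraries held 52.6, 49.6 and 56.4 CPM, WT libraries 90.5, 45.9 and 72.3 CPM, ΔGS libraries 75.9, 50.2 and 105 CPM and ΔADAM libraries 88.7, 48.0 and 114 CPM. In experiments 1 and 3 all constructs were above control, and in experiment 2 the ratios to control were 0.925, 1.01 and 0.966, close to 1 with every construct. The fit gave log2 fold changes of 0.31 ± 0.19, 0.44 ± 0.19 and 0.55 ± 0.19. Without the control library of experiment 2, GOT1 was called higher with ΔGS (0.75) and with ΔADAM (0.85).

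PCK2 makes phosphoenolpyruvate from oxaloacetate in mitochondria and lies on chromosome 14 (24094053 to 24110598, plus strand). Control libraries were at 21.0, 22.7 and 36.2 CPM and WT libraries at 64.4, 46.4 and 70.9 CPM. ΔGS libraries were at 53.5, 53.7 and 90.9 CPM and ΔADAM libraries at 60.1, 48.6 and 81.6 CPM. The groups did not overlap, and the ratio to control with ΔGS was nearly the same in the 3 experiments, at 2.55, 2.37 and 2.51. The log2 fold changes were 1.17 ± 0.12 with WT, 1.27 ± 0.12 with ΔGS and 1.22 ± 0.12 with ΔADAM.

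Of the proline pair, only the last enzyme of the route was above control. PYCR1, which reduces pyrroline-5-carboxylate to proline, lies on chromosome 17 (81932384 to 81942412, minus strand) and was at 37.3, 32.8 and 54.4 CPM in control. It was at 72.0, 52.9 and 75.5 CPM with WT, at 64.5, 55.1 and 114 CPM with ΔGS and at 68.4, 53.0 and 97.6 CPM with ΔADAM. The control of experiment 3 was just above the lowest WT and the lowest ΔADAM library, both of experiment 2, although every construct was above the control of its own experiment. The log2 fold changes were 0.70 ± 0.12, 0.87 ± 0.12 and 0.79 ± 0.12, the smallest of the 6 genes called. PYCR1 was no longer called with WT when control 1, control 3, WT 1 or WT 2 was left out, with 5 of the 8 genes called each time.

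ALDH18A1, which makes pyrroline-5-carboxylate from glutamate and so starts the route, lies on chromosome 10 (95605929 to 95656706, minus strand). It was at 73.4, 84.5 and 92.8 CPM in control and at 75.1, 84.9 and 85.4 CPM with WT. It was at 75.9, 77.1 and 81.8 CPM with ΔGS and at 78.3, 73.8 and 81.1 CPM with ΔADAM. All 12 values lay between the lowest and the highest control library. The log2 fold changes were -0.04 ± 0.08, -0.10 ± 0.08 and -0.11 ± 0.08.

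CBS joins homocysteine with serine to cystathionine, and CTH splits cystathionine to release cysteine. CTH, on chromosome 1 (70411218 to 70439851, plus strand), had the lowest level per length of the 8 genes in control, at 13.2 ± 3.07 TPM (transcripts corrected for length; SD, n = 3), and was at 10.7, 9.83 and 17.4 CPM there. It was at 44.6, 19.2 and 44.7 CPM with WT, at 35.9, 29.5 and 56.7 CPM with ΔGS and at 38.2, 28.4 and 60.1 CPM with ΔADAM. The groups did not overlap, but the WT library of experiment 2 was close to the control of experiment 3. The log2 fold changes were 1.43 ± 0.18, 1.62 ± 0.17 and 1.66 ± 0.17.

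CBS, on chromosome 21 (43053191 to 43076943, minus strand), was at 92.5, 88.1 and 135 CPM in control. It was at 226, 150 and 210 CPM with WT, at 196, 172 and 273 CPM with ΔGS and at 206, 167 and 247 CPM with ΔADAM. Again all construct libraries were above all control libraries. The log2 fold changes were 0.89 ± 0.11, 1.01 ± 0.11 and 0.97 ± 0.11. The annotation lists CBSL, of nearly the same sequence, as a separate gene on the same chromosome (6444869 to 6468040). Reads of CBS and CBSL cannot be fully told apart, since 95.3% of the runs of 31 bases in the leading CBS transcript also occur in CBSL. With the counts of both summed, the log2 fold changes were 0.85, 0.97 and 0.92.

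**Figure D2:**
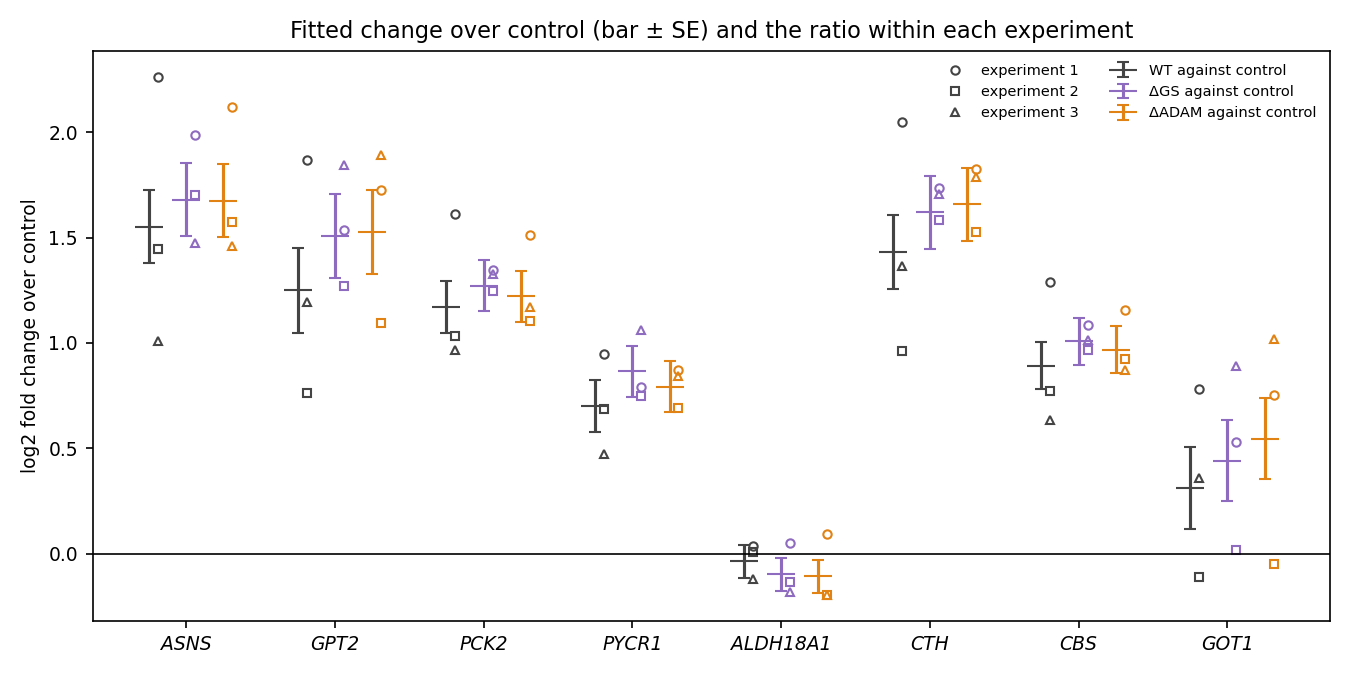
Log2 fold change over control (y axis) of the 8 genes, with the fit as a bar ± SE and the ratio within each experiment as an open symbol, in colour by construct. ASNS with WT spans 1.01 to 2.27 across the experiments, whereas ALDH18A1 stays around 0 and GOT1 is at or below 0.02 in experiment 2.

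Experiments 2 and 3 alone, without the shallow control library, gave fits for the 6 genes between 0.60 (PYCR1) and 1.24 (ASNS) with WT, between 0.92 (PYCR1) and 1.65 (CTH) with ΔGS and between 0.79 (PYCR1) and 1.68 (CTH) with ΔADAM. Of the 8 genes, 4 were then called with WT, 6 with ΔGS and 6 with ΔADAM, and the 2 lost with WT were GPT2 and PYCR1. The genes were chosen on the contrast with control in these libraries, so these counts are no separate support. Fewer of all genes were called in this fit than the 355, 708 and 784 of the main fit (2.35%, 4.69% and 5.19% of those tested). Their numbers are given in the section on processing.

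The cleavage-resistant variants ask whether release of the intracellular part of TYRO3 matters for these genes, and WT was therefore set against the mean of ΔGS and ΔADAM. This contrast and that of ΔGS with ΔADAM were not used to choose the genes. With WT, 7 of the 8 genes were lower than the mean of the variants in the fit, by up to 0.27 on the log2 scale, and ALDH18A1 was higher by 0.07. None of the 8 passed the test of edgeR, and 0 of all 15098 genes did (0% of genes tested). At an unadjusted p under 0.05 there were 237 genes (1.57%), and DESeq2 called 5 genes, with 0 of the 8 among them.

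GPT2 had the largest difference, with a log2 difference of -0.27 and a 95% interval from -0.63 to 0.10 (adjusted p = 1.00, edgeR quasi-likelihood test). CTH followed with -0.21 (-0.52 to 0.10) and GOT1 with -0.18 (-0.54 to 0.18). The differences were -0.13 (-0.44 to 0.19) for ASNS, -0.13 (-0.35 to 0.10) for PYCR1, -0.10 (-0.31 to 0.11) for CBS and -0.08 (-0.29 to 0.14) for PCK2, and 0.07 (-0.08 to 0.21) for ALDH18A1. The lower ends of the 7 negative intervals ran from -0.63 to -0.29 and all 8 intervals included 0, so differences of either sign within these intervals are compatible with the data.

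The experiments gave opposite directions. In experiment 1, WT was above the mean of the variants for 7 of the 8 genes, with a median log2 ratio of 0.18. In experiment 2 it was below for 7 of the 8, with a median of -0.16, and in experiment 3 again for 7 of the 8, with a median of -0.42. The same 7 genes, all but ALDH18A1, were above in experiment 1 and below in experiments 2 and 3, a pattern that 17.7% of all tested genes had. Each experiment has 1 WT library, which all 7 genes share, so they are not separate observations. The pattern was not tested. For GPT2 the 3 log2 ratios were 0.24, -0.42 and -0.67, and for CTH they were 0.27, -0.59 and -0.38.

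ΔGS and ΔADAM lay closer together. The log2 differences of ΔGS from ΔADAM ran from -0.10 for GOT1 (95% interval -0.51 to 0.31) to 0.07 for PYCR1 (-0.18 to 0.33), with a median of 0.01. None of the 8 genes and 0 of all genes (0%) were called by edgeR, 216 genes (1.43%) had an unadjusted p under 0.05, and DESeq2 called 1 gene, which was none of the 8. ASNS differed by 0.00 (-0.36 to 0.37) and CTH by -0.04 (-0.38 to 0.31), both at an adjusted p of 1.00.

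**Figure D3:**
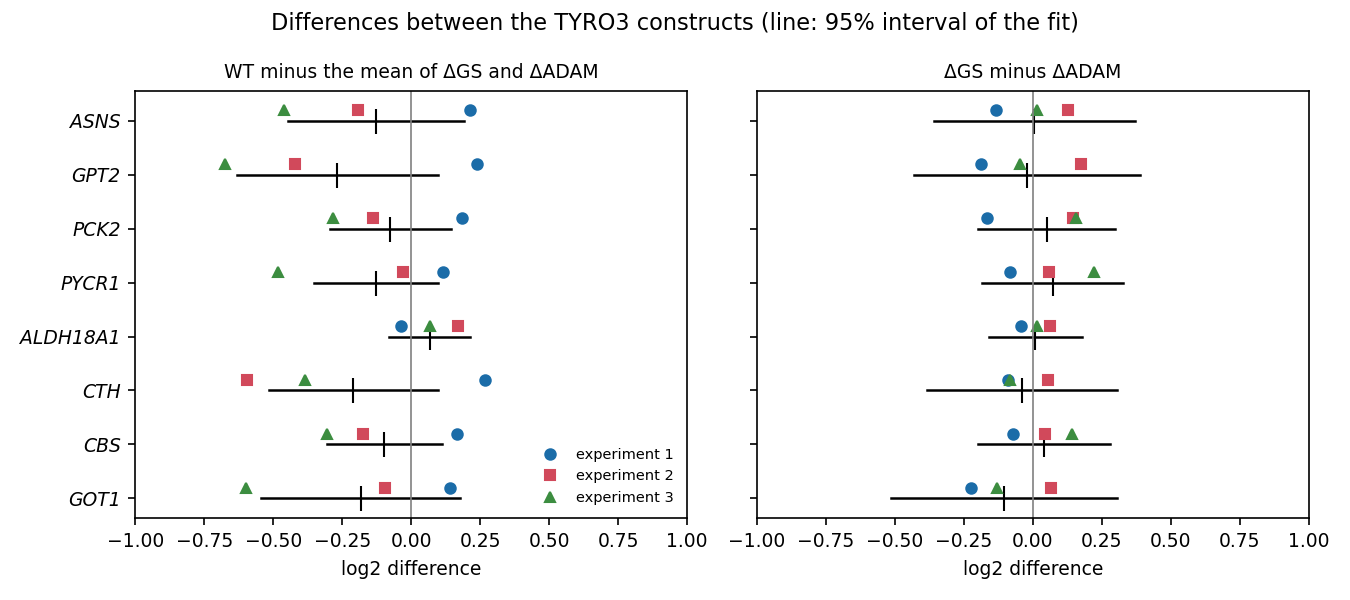
Log2 difference (x axis) of WT from the mean of ΔGS and ΔADAM (left) and of ΔGS from ΔADAM (right) for the 8 genes, with the 95% interval of the fit as a line and each experiment as a symbol. All 16 intervals include 0, and on the left 7 of the 8 genes have experiment 1 to the right of 0 and experiments 2 and 3 to the left.

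Most of the 8 enzymes have an isozyme in another compartment or an annotated copy elsewhere in the genome. Levels of different genes are compared here in TPM, the share of transcripts, which corrects for transcript length. GOT2, the mitochondrial partner of GOT1, was more abundant than GOT1, at 157 ± 13.9 TPM (SD, n = 3) in control against 47.7 ± 1.74 TPM. GOT2 did not follow the 6 genes, with log2 fold changes in CPM of -0.27 ± 0.08 with WT, -0.30 ± 0.08 with ΔGS and -0.34 ± 0.08 with ΔADAM, all under the fold threshold. GPT, the cytosolic alanine transaminase, was at 1.84 ± 0.68 TPM in control, far under GPT2 at 19.1 ± 3.19 TPM, and was not called either.

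PCK1, the cytosolic counterpart of PCK2, was at 0.0417 TPM or less in every library and did not pass the filter, so PCK2 carried nearly all PCK transcripts in these cells. PYCR3, a cytosolic isozyme of PYCR1, was at 5.37 ± 0.72 TPM in control, where PYCR1 was at 41.7 ± 10.8 TPM, and was not called. CBSL was at 5.02 ± 4.60 TPM in control, where the shallow library of experiment 1 alone had 10.3 TPM, and at 2.58 ± 1.59 TPM with ΔGS. These values depend on how kallisto divided reads shared with CBS, so they are not read as a level of CBSL itself.

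**Figure D4:**
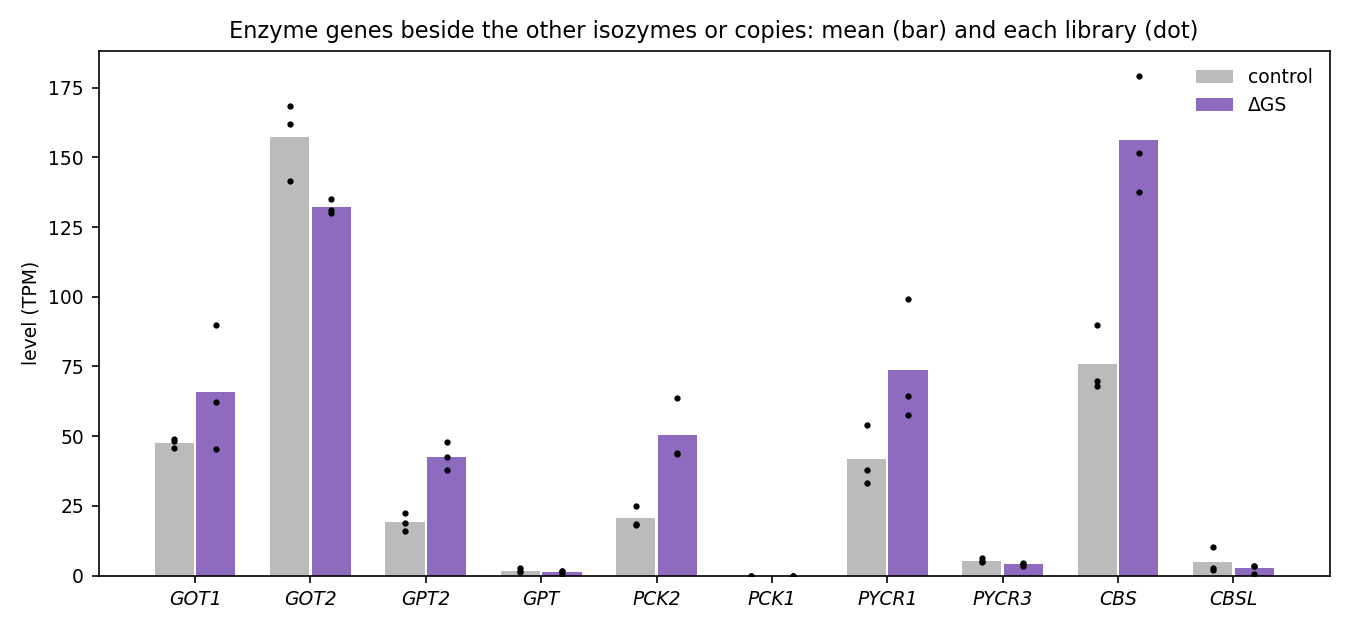
Level in TPM (y axis, from 0) of 5 of the enzyme genes and of their isozymes or copies in control and with ΔGS, with the mean of 3 libraries as a bar and each library as a dot. GOT2 is above GOT1 in control, while GPT, PCK1, PYCR3 and CBSL are low in both groups.

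Other enzymes of the same routes follow. Their lists leave out the 8 genes and were also chosen with earlier results of these data known. Nothing is therefore read from a contrast between these lists and the 8 genes. The genes named from the lists were picked because they were called here. Their adjusted p-values describe that pick and are no separate support. Over all tested genes, 1.66% were called higher with WT, 2.81% with ΔGS and 3.15% with ΔADAM. In either direction it was 2.35%, 4.69% and 5.19%. Of 16 further enzymes of aspartate, asparagine, alanine and glutamate, 15 were tested, and 1, ASS1, was called higher with each construct. ASS1 joins citrulline and aspartate in arginine synthesis and was at 2.10, 2.94 and 4.55 CPM in control against 10.2 to 18.1 CPM in the 9 construct libraries. Its log2 fold changes were 1.88 ± 0.24, 2.09 ± 0.24 and 2.06 ± 0.23 (adjusted p = 0.0042, 0.0016 and 0.0017, edgeR). The median of the 15 was -0.03 with WT, 0.03 with ΔGS and -0.09 with ΔADAM.

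Of 13 other genes of proline and ornithine metabolism, 10 were tested and 0 were called higher. ARG2, the mitochondrial arginase that yields ornithine, was called lower with ΔGS and with ΔADAM, with log2 fold changes of -0.74 ± 0.20 and -0.86 ± 0.20 (adjusted p = 0.042 and 0.024, edgeR), and stood at -0.78 ± 0.20 with WT without passing. The median of the 10 was -0.22, -0.16 and -0.31.

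Of 22 genes of the methionine cycle, glutathione synthesis and sulfur oxidation, 19 were tested and 1, GCLM, was called higher with each construct. GCLM is the regulatory subunit of the ligase that uses cysteine to make glutathione, and it rose by 0.66 ± 0.13, 0.80 ± 0.13 and 0.79 ± 0.13 on the log2 scale (adjusted p = 0.025, 0.0075 and 0.0076, edgeR). Its control libraries were at 124 to 144 CPM and the construct libraries at 162 to 285 CPM.

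Of 15 genes of oxaloacetate, malate and phosphoenolpyruvate, 13 were tested and 0 were called higher. ACLY, which splits citrate to acetyl-CoA and oxaloacetate, fell with each construct, by 0.66, 0.81 and 0.72 on the log2 scale (adjusted p = 0.018, 0.0052 and 0.0076, edgeR). PC, which makes oxaloacetate from pyruvate, fell by 0.75 with ΔGS and by 0.75 with ΔADAM (adjusted p = 0.025 and 0.023, edgeR).

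Among 10 regulators of the amino acid response, 0 were called with WT, 4 were called higher with ΔGS (ATF4, CEBPG, ATF3 and TRIB3) and 5 with ΔADAM (the same 4 and CEBPB). Over all tested genes, the shares called higher were 1.66%, 2.81% and 3.15%. This list was also chosen with earlier results of these data known, so its counts and adjusted p-values are a description. TRIB3 and CEBPB are named after their values were seen. ATF4 was at 246, 211 and 282 CPM in control, at 499, 254 and 453 CPM with WT, at 390, 385 and 882 CPM with ΔGS and at 432, 350 and 761 CPM with ΔADAM. In experiment 2 ATF4 with WT was within the range of the controls. Its log2 fold changes were 0.67 ± 0.21 with WT (adjusted p = 0.10, edgeR), 1.07 ± 0.21 with ΔGS (0.017) and 0.98 ± 0.21 with ΔADAM (0.020).

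CEBPG, a partner of ATF4 on DNA, stood at 0.89 ± 0.29 with WT and rose by 1.02 ± 0.29 with ΔGS and 1.28 ± 0.29 with ΔADAM. ATF3, a related factor, was at 1.31 to 3.69 CPM in control and at 4.24 to 14.3 CPM with the constructs, with log2 fold changes of 1.32 ± 0.39, 1.58 ± 0.38 and 1.47 ± 0.39, of which the last 2 passed. EIF2AK3, a kinase of the endoplasmic reticulum that reduces translation under stress, was called lower with ΔGS (-0.62 ± 0.15). None of the 10 was called between WT and the mean of the variants, so a call with ΔGS and none with WT does not show that the constructs differ, nor that they act alike.

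**Figure D5:**
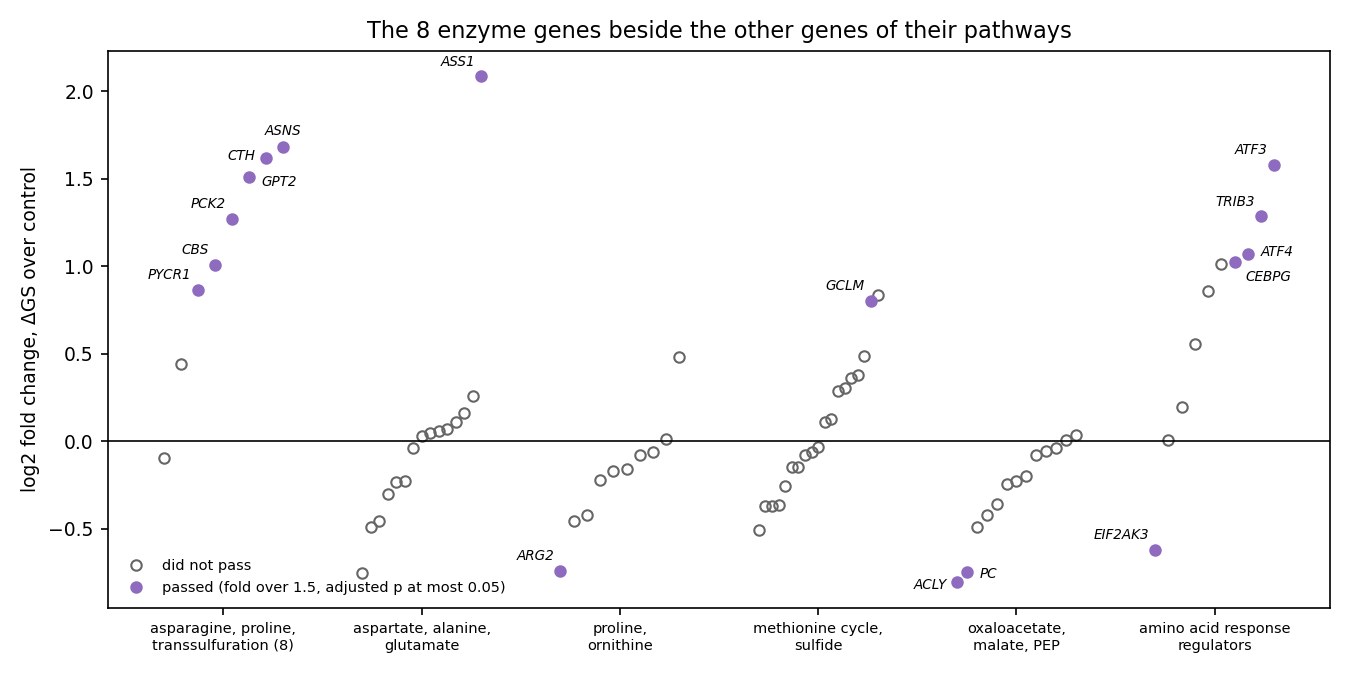
Log2 fold change of ΔGS over control (y axis) for the 8 enzyme genes and the tested genes of 5 other lists (x axis), each point 1 gene, sorted within its list, and filled where it passed. In the first list 6 of 8 points are filled, and in the 4 other enzyme lists 1, 1, 1 and 2 are. All lists were chosen with earlier results of these data known, and 4.69% of all tested genes passed in either direction.

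Several transcripts made up these gene levels. PCK2-201, CTH-202, GOT1-201 and GPT2-201 each held over 80% of the counts of their gene over the 12 libraries (83.2%, 90.2%, 96.8% and 88.0%), and ALDH18A1-202 held 82.9%. ASNS was spread over 5 transcripts with 10% or more each, ASNS-202 (29.4%), ASNS-214 (24.5%), ASNS-209 (15.6%), ASNS-213 (11.7%) and ASNS-205 (10.1%). Each of these 5 had a higher mean TPM with every construct than in control. ASNS-202 was at 23.1 ± 20.3 TPM in control and at 76.4 ± 19.9 TPM with WT, and its control libraries ranged from 4.85 to 44.9 TPM, so the split between transcripts was less certain than the sum. Of the runs of 31 bases in ASNS-202, 16.0% also occur in transcripts of 7 other genes, and 7.94% occur in the pseudogene ASNSP1.

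CBS-204, the one CBS transcript above 10%, was at 34.5 ± 28.4 TPM in control and 87.9 ± 17.0 TPM with WT. PYCR1-201 held 51.2% of the PYCR1 counts, and no other PYCR1 transcript reached 10%. It was at 16.0 ± 9.01 TPM in control, and its libraries with the constructs ranged from 20.3 to 51.6 TPM, which overlapped the highest control at 26.4 TPM. For PCK2, CTH, ALDH18A1 and GOT1, no run of 31 bases of the leading transcript occurred in another gene, and for GPT2 it was 0.278%. All these runs come from sequences of GENCODE 29, whereas kallisto used Ensembl 96, and some transcripts differ between them. GOT1-201 was quantified at 1978 bases but gave 2893 runs, and ASNS-202 at 2385 bases but gave 1964. For such transcripts the shares do not describe the exact sequence quantified.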

How the data were processed

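Total RNA of 12 cultures was sequenced by the authors with a stranded, poly(A)-selected library kit. Per the labels and the methods, reads were checked with FastQC 0.11.9, trimmed with PRINSEQ and Trimmomatic 0.33 and pseudoaligned with kallisto 0.46.0 to Ensembl 96 (GRCh38). The deposited values are kallisto's estimated counts and TPM values for 188753 transcripts per library. The authors' later batch correction and library size normalization are not in these files.

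Transcripts were joined to GENCODE 29 by identifier without version (169797 matched, 18956 did not; 97.4 to 97.5% of the counts of each library matched). Estimated counts were summed per gene, rounded and fitted with edgeR 4.0.16 in R 4.3.3: TMM normalization, filterByExpr (minimum count 10, minimum total 15), a quasi-likelihood model with the 4 groups and a replicate block for the 3 experiments. The labels number the experiments, which pairs the libraries. Deviations from the group means correlated at r of 0.14 to 0.66 for the 18 pairs of libraries of 1 experiment and at -0.49 to 0.03 for the 36 pairs of different experiments. The 3 deviations of a gene within a group sum to 0, so positive values in the first range pull the second down. The second range is therefore no separate evidence of pairing. P-values were adjusted by Benjamini and Hochberg over the 15098 genes, and a call needed a fold over 1.5 and an adjusted p of at most 0.05. The 5 comparisons were each construct with control, WT with the mean of ΔGS and ΔADAM, and ΔGS with ΔADAM. Nothing says that the cultures came from separate thaws, so p-values cover the spread between these experiments.

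The 8 genes and all gene lists were chosen with earlier results of these data known. Named besides them were other isozymes or copies (1 of them is not reported here), TYRO3, up to 3 called genes each way per list, the 8 genes with the most similar profile, and transcripts with 10% or more of a gene's counts. Alternatives were DESeq2-type size factors, DESeq2 1.42.0, other filters, other experiment terms, experiments 2 and 3 alone, a separate fit for each comparison, limma 3.58.1 on log2 TPM (pseudocount 1 or 0.1), counts remade from TPM, protein-coding transcripts only, CBS and CBSL summed, and each library left out. The procedure was also run on simulated counts that held no effect of experiment, so this run does not check the replicate block. Tables and plots were made with Python 3.11.15, pandas 2.3.3 and matplotlib 3.10.9.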

Additional observations from a re-analysis of the deposited data

Results flagged for a closer look

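ALDH18A1 was set apart because its direction against control differed between experiments. In experiment 1 all 3 constructs were slightly above control, with log2 ratios of 0.03 for WT, 0.05 for ΔGS and 0.09 for ΔADAM. In experiment 3 all 3 were below, with -0.12 for WT, -0.18 for ΔGS and -0.20 for ΔADAM. The 3 ratios of an experiment share 1 control library, the difference between the experiments was not tested, and no fit over the experiments was called for this gene.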

How the results depend on the processing

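Without the replicate block the calls against control went: with a term for experiment 1 against 2 and 3, the genes called were 6 with WT, 69 with ΔGS and 168 with ΔADAM (355, 708 and 784 with the block) and 0, 0 and 1 of the 8 enzymes, and with no term at all 3, 4 and 5 genes and 0, 0 and 0 enzymes. Experiments 2 and 3 alone gave 47, 189 and 218 genes, only the groups compared 30 genes and 1 enzyme (PCK2) with WT and 469 genes with ΔGS, and limma 233, 418 and 499 genes (pseudocount 1) or 228, 423 and 518 (pseudocount 0.1). DESeq2 called 610 genes with WT, 5 between WT and the variants and 1 between ΔGS and ΔADAM, and no filter 577 and 2 for the first of these. Leaving out 1 library gave 79 (without WT 1 or WT 2) to 606 (without WT 3) genes with WT, 269 (without control 1) to 777 with ΔGS, 198 (without ΔADAM 3) to 870 with ΔADAM, 0 to 1 between ΔGS and ΔADAM (1 without ΔGS 3) and 0 to 0 between WT and the variants, and 5 to 6, 6 to 7, 6 to 7, 0 to 0 and 0 to 0 of the 8 enzymes. The causes of these shifts were not tested.

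The differences between constructs were near 0 and some turned sign. Between ΔGS and ΔADAM, ASNS became -0.0045 (DESeq2-type size factors), -0.0047 (DESeq2), -0.0030 (10 counts in every library), -0.0063 (2-level experiment term), -0.0022 (no term), -0.0023 (only the groups compared) and -0.048 (limma, either pseudocount). ALDH18A1 became -0.00020 (size factors), -0.00063 (DESeq2), -0.033 and -0.034 (limma) and -0.00074 (protein-coding transcripts), GPT2 0.040 (experiments 2 and 3), PYCR1 -0.025 and CBS -0.037 (limma). With 1 library left out, the ΔGS against ΔADAM differences ran from -0.040 to 0.069 (ASNS), -0.15 to 0.13 (GPT2), -0.028 to 0.15 (PCK2), -0.070 to 0.17 (PYCR1), -0.034 to 0.065 (ALDH18A1), -0.12 to 0.068 (CTH), -0.024 to 0.11 (CBS) and -0.25 to 0.067 (GOT1), and those of WT against the variants from -0.37 to 0.058 (ASNS), -0.23 to 0.027 (PCK2), -0.26 to 0.024 (PYCR1) and -0.26 to 0.011 (CBS), above 0 only without WT 3. Against control, the 6 enzymes called kept their direction under every alternative run. Depth limits chiefly control 1, with 4008293 counts.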

Other observations

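The 8 genes whose levels ran most like those of the 8 enzymes are named here. Likeness was Pearson's r, over the 12 libraries and after removing the mean of each experiment, with the mean profile of the 8 genes, among 11084 genes of at least 5 CPM on average. The libraries share their experiment and control, and r follows the gap between control and constructs, so it is given as a description. SLC1A5, a glutamine transporter, was closest at 0.995, with 226 to 339 CPM in control and 336 to 678 CPM with the constructs. Next came RBM22 (0.993), a splicing factor that moved little, with log2 fold changes of 0.29 to 0.34. NNMT (0.991), which transfers methyl groups to nicotinamide, had log2 fold changes of 2.04 to 2.40. Its control level was low, at 1.05, 1.13 and 1.47 CPM. PHGDH (0.991) starts serine synthesis and MTHFD1L (0.991) belongs to mitochondrial folate metabolism, and their log2 fold changes were 0.92 to 1.05 and 0.77 to 0.86. SRXN1 (0.990), ZNF783 (0.990) and GARS (0.990), the glycyl-tRNA ligase, complete the 8 closest genes.

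Set against the mean of the other 7, PCK2 (r of 0.977), ASNS (0.975), CBS (0.975), GPT2 (0.969), PYCR1 (0.962) and CTH (0.952) ran together over the 12 libraries, GOT1 less so (0.787), and ALDH18A1 did not (-0.456). These r values also follow the gap between control and constructs, which was known when the genes were chosen. They are a description and not separate support. The closest pair was PCK2 and CBS (0.997) and the farthest ALDH18A1 and CTH (-0.521).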
